A study of Mus musculus with 8 samples.

Results

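NA1c is 1 of the 8 neuronal subtypes of the mouse stellate ganglion in this study, and its leading gene is Sctr, the receptor of the hormone secretin. Its members are the neurons that the authors' deposited annotation names NA1c, which are 239 of 1303 neurons. The neurons come from 8 adult male C57BL6/J mice, 8 to 10 weeks old, of 1 condition: retrograde adeno-associated viruses delivered GFP to the heart and tdTomato to the front paws, and the reporters trace neurons to either target. The stellate ganglia of both sides were dissociated and their cells sequenced with the 10x Genomics system, which counts captured RNA molecules by unique molecular identifiers (UMIs). Of the mouse names in the data, 5 match 1 sample each, and these mice, replicates 1 to 5, hold 38, 70, 20, 24 and 64 NA1c neurons among 1002. The other 3 names match no single sample by their labels, and their 301 neurons, 23 of them NA1c, enter only pooled values. The paper's supplement lists the 5 matched mice as batch 2 and the 3 samples left over as batch 1, so the values by mouse come from 1 batch.

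Postganglionic sympathetic neurons of the stellate ganglion innervate the heart, the forelimb and other targets of the upper body. Most are noradrenergic: tyrosine hydroxylase (Th) and dopamine beta-hydroxylase (Dbh) make noradrenaline, Slc18a2 loads it into vesicles and Slc6a2 takes it back up after release, and many of these neurons also carry a peptide such as neuropeptide Y (Npy) or galanin (Gal). The secretin receptor is a class B G protein-coupled receptor, and Rxfp1 is the receptor of the hormone relaxin. Both act mainly through the stimulatory G protein and cyclic AMP. The other genes that mark NA1c are Pcdh7, a protocadherin of cell adhesion, Vcp, an ATPase that draws ubiquitin-tagged proteins out of complexes and membranes, and Elavl3, a neuronal RNA-binding protein.

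Before the results, a limit of the comparison group has to be given. Of the 1303 neurons, 73 carried a cell barcode that a neuron of another mouse also carried, over 21 barcodes, and for 20 of these barcodes the neurons had the same subtype. The neurons were 55 of NA2, 15 of Ach2 and 3 of Glut, and 0 were NA1c. The levels of genes in NA1c are therefore untouched. The values of the other neurons are not, nor are the shares that NA1c makes up of all neurons or UMIs. Counts of genes are given with and without these neurons.

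Because NA1c was defined by the authors from the expression of these same cells, its genes are described without a test. A level is the mean of UMIs per 10000 over the neurons of a group in 1 mouse, and a difference is log2 of the level plus 0.1 in NA1c minus the same in the other neurons of that mouse. A gene was counted as higher or lower when its mean difference was at least 2-fold and had the same sign in all 5 mice.

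Sctr set NA1c apart in every mouse. Its level in NA1c was 16.1, 21.6, 10.9, 18.6 and 13.3 UMIs per 10000 in replicates 1 to 5, against 2.50, 2.52, 3.54, 3.19 and 2.81 in all other neurons. The lowest NA1c value lay above the highest value of the other neurons. The mean was 16.1 ± 4.21 (SD, n = 5 mice) in NA1c and 2.91 ± 0.449 in the others, a log2 difference of 2.40 ± 0.54 or 5.28-fold. In the pooled neurons of the unmatched mice, Sctr stood at 24.1 UMIs per 10000 in the 23 NA1c neurons and at 4.34 in the others.

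**Figure D1:**
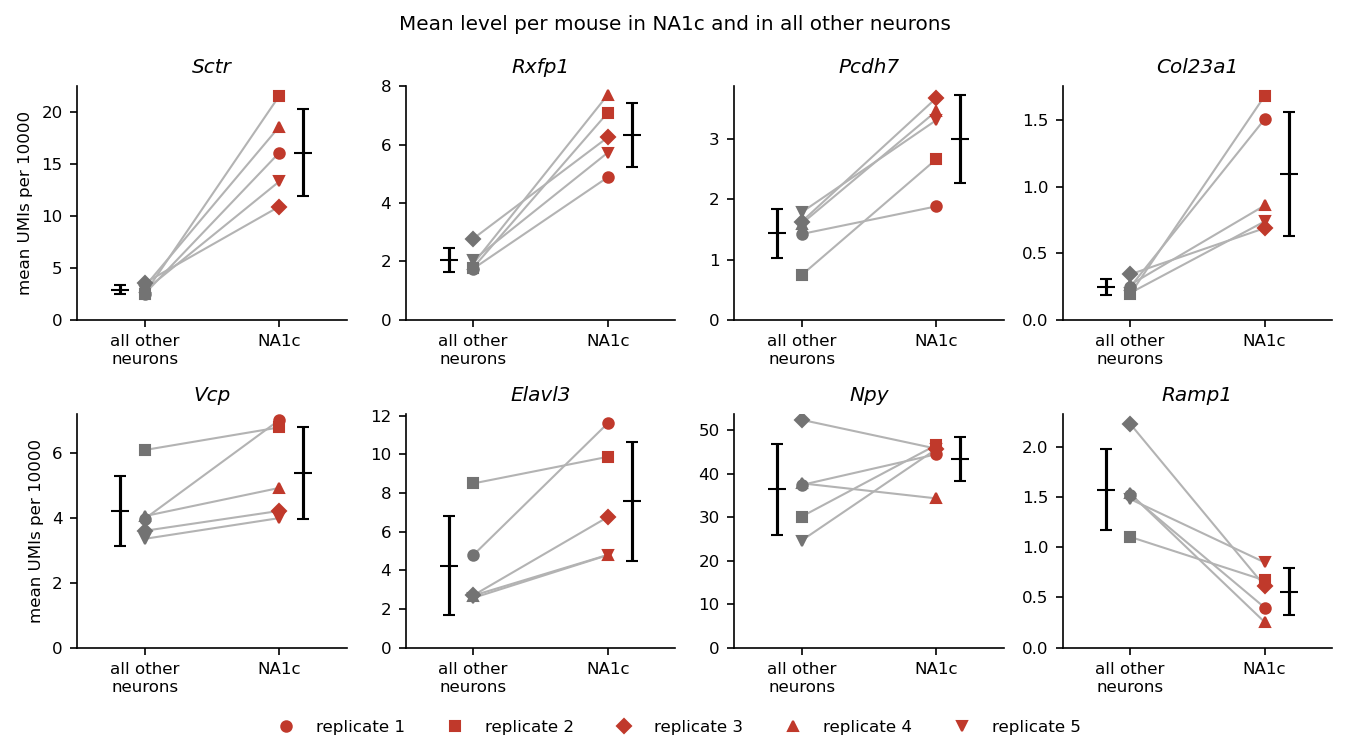
Mean level per mouse, in UMIs per 10000, of 8 genes in all other neurons (grey) and in NA1c (red). Each line joins the values of 1 mouse, and the bars beside the points give the mean and SD over 5 mice. Sctr, Rxfp1, Pcdh7 and Col23a1 do not overlap between the groups, Vcp, Elavl3 and Npy overlap, and Ramp1 is lower in NA1c in all 5 mice.

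Among the subtypes, Sctr was highest in NA1c and next in NA1a. In NA1a, with 316 neurons in all mice and 182 in replicates 1 to 5, its level in these replicates was 6.08, 6.61, 8.39, 10.5 and 7.06 UMIs per 10000. NA1c was above NA1a within all 5 mice, by a log2 difference of 1.04 ± 0.51, and the 2 ranges, from 10.9 up in NA1c and to 10.5 in NA1a, came close without overlapping. NA3 followed with 3.49 ± 0.928 in the 3 mice with at least 10 such neurons. NA2, at 0.988 ± 0.401, and NA1b, at 0.75 ± 0.721, were lowest among the noradrenergic subtypes and overlapped each other. Ach2 had 0.384 and 1.30 in 2 mice, and Ach1 had 2.01 in 1 mouse.

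By neuron, a UMI of Sctr was found in 214 of 239 NA1c neurons, or 89.5% (exact 95% Clopper-Pearson interval, 84.9 to 93.1%), at a median depth of 2685 UMIs per neuron. The share was 77.8% in NA1a, where the median depth was 6524.5 UMIs, and 13.5% in NA1b, at 3252 UMIs. These intervals cover counting error only. The deposited table holds neurons alone, so the share that free RNA would give in a cell type without Sctr is not known, and the lowest share in a noradrenergic subtype, that of NA1b, stands in its place. After each neuron was thinned to 2000 UMIs, the share was 84.6% ± 17.7 (SD, n = 5 mice) in NA1c and 65.7% ± 15.4 in NA1a. In replicate 3 the order was the reverse, with 58.8% of 17 NA1c neurons against 74% in NA1a. NA1c had the higher share in each other mouse. The median NA1c neuron held 5 Sctr UMIs and the highest held 33. At least 5 Sctr UMIs were found in 132 NA1c neurons (55.2%) and in 184 of the other neurons (17.3%).

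Rxfp1 followed another order. In NA1c its level was 4.89, 7.10, 6.25, 7.71 and 5.73 UMIs per 10000 in replicates 1 to 5, and in all other neurons 1.75, 1.79, 2.78, 1.91 and 2.04. All NA1c values lay above those of the others, with a log2 difference of 1.58 ± 0.35. NA1a, however, had 5.88 ± 0.921, and the difference of NA1c from it was 0.10 ± 0.14, higher in 4 of 5 mice. NA1b had 0.665 ± 0.199, a difference of 3.09 ± 0.48. Rxfp1 thus separated NA1c and NA1a from NA1b, but NA1c and NA1a differed by less than their spread over mice.

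Most NA1c neurons held both receptors. Sctr and Rxfp1 were found together in 179 of the 239 neurons (74.9%), Sctr alone in 35, Rxfp1 alone in 15 and neither in 10. The median depth of the neurons without either was 2008.5 UMIs, against 2917 in those with both. In NA1a 71.5% held both, and in NA1b 7.40%. Of the ligands of the 2 receptors in the list written for them, no UMI of Sct (secretin) or Rln1 was found in the 216 NA1c neurons of replicates 1 to 5, a count of 0 that leaves room for 1.39% of neurons with a UMI of either gene.

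**Figure D2:**
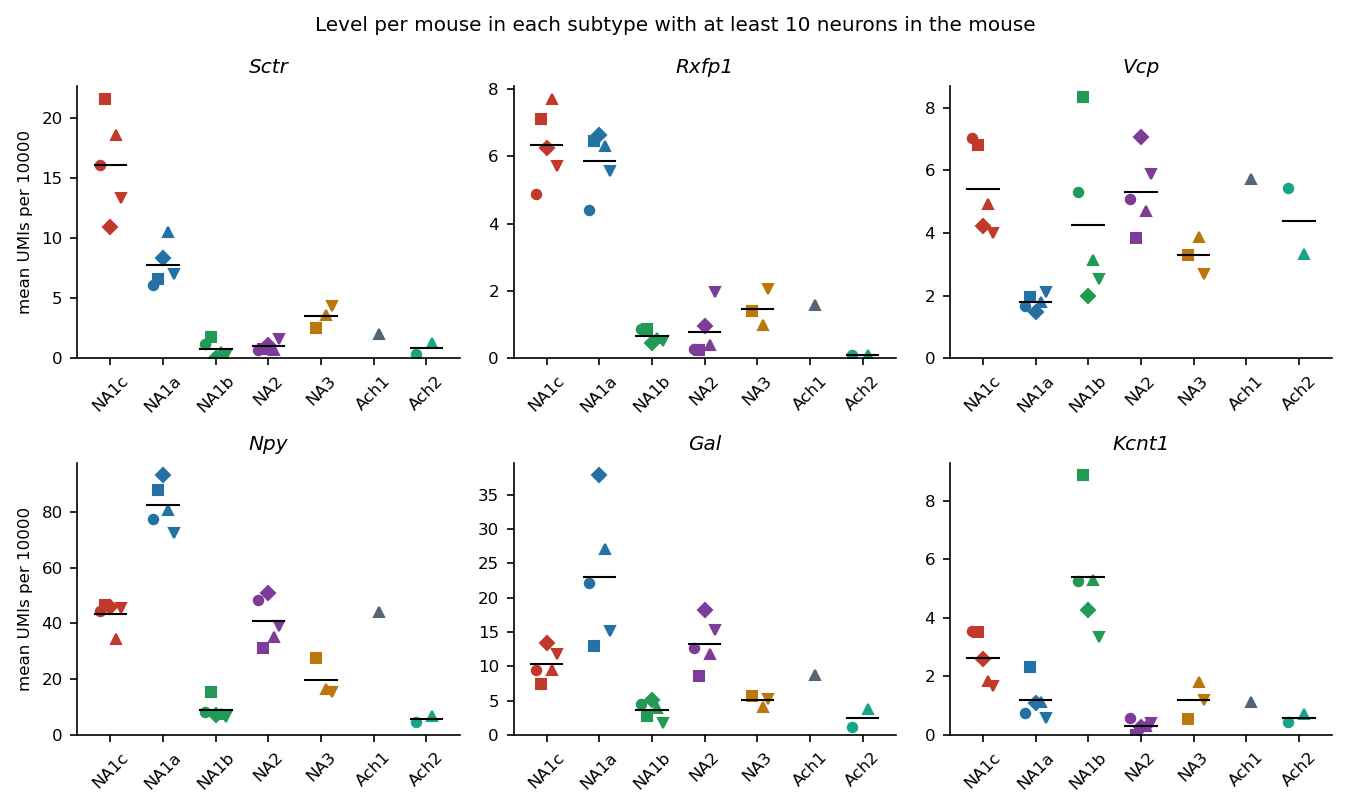
Mean level per mouse, in UMIs per 10000, of 6 genes in each subtype with at least 10 neurons in that mouse. Each marker shape is 1 mouse and the line is the mean over mice. Sctr is highest in NA1c, Rxfp1 overlaps between NA1c and NA1a, Vcp is lowest in NA1a, and Npy, Gal and Kcnt1 place NA1c between NA1a and NA1b.

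The order of Pcdh7 was close to that of Rxfp1. Its level was 1.88, 2.66, 3.68, 3.46 and 3.31 UMIs per 10000 in NA1c and 1.42, 0.741, 1.63, 1.59 and 1.78 in all other neurons, with a log2 difference of 1.03 ± 0.48. The groups did not overlap, but the value lies just past the 2-fold limit and fell short of it in several alternatives, at 0.86 without NA2, 0.92 without the neurons that share a barcode, 0.86 without replicate 2 and 0.57 with neurons thinned to 2000 UMIs. NA1a had 3.52 ± 1.07, above NA1c in 3 of 5 mice, and NA1b 0.454 ± 0.261.

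Vcp and Elavl3 were both higher in NA1c than in NA1a. Vcp stood at 7.03, 6.80, 4.22, 4.93 and 4.00 UMIs per 10000 in NA1c and at 1.66, 1.95, 1.49, 1.79 and 2.13 in NA1a. Every NA1c value was above every NA1a value, and the log2 difference was 1.5 ± 0.43. The difference from NA1b was 0.48 ± 0.49, and from all other neurons 0.34 ± 0.26, so that Vcp was not counted as higher than in other neurons as a whole. Elavl3 had 11.6, 9.88, 6.75, 4.80 and 4.78 in NA1c and 3.43, 2.30, 2.69, 2.84 and 1.48 in NA1a, again without overlap. Its difference was 1.49 ± 0.50 from NA1a, 0.21 ± 0.44 from NA1b and 0.89 ± 0.44 from all other neurons. Outside these subtypes the 2 genes parted. Vcp in NA2 was 5.31 ± 1.22, a difference of 0.01 ± 0.65 from NA1c, and in Ach1 it was 5.73 in 1 mouse, so that NA1a had the lowest level of Vcp. Elavl3 in NA2 was 1.86 ± 0.566, below NA1c in all 5 mice by a difference of 1.92 ± 0.85, and in Ach1 it was 1.89. In NA1c both genes were highest in replicates 1 and 2, the mice whose NA1c neurons had the lowest median depth, 1969 and 2400 UMIs. With neurons thinned to 2000 UMIs, the difference from all other neurons was 0.58 for Vcp and 0.88 for Elavl3.

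The markers were chosen on these same neurons, so their levels describe NA1c and do not test its name. Of the 5 markers, 3 (Sctr, Rxfp1 and Pcdh7) were counted as higher than in all other neurons, where 1.46% of all 3897 genes were.

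Vcp and Elavl3 were the markers higher in NA1c than in NA1a apart from Sctr, and for them the 250 bases before their RefSeq start sites are shown (build GRCm38.p6, 5′ to 3′ on the minus strand, the strand of both genes). Capitals mark CCAAT or, on the other strand, ATTGG, the letters of the CCAAT box common in promoters. Vcp lies at chr4:42979963-43000507 and its window at chr4:43000508-43000757, and Elavl3 lies at chr9:22015005-22052023 and its window at chr9:22052024-22052273.
Vcp: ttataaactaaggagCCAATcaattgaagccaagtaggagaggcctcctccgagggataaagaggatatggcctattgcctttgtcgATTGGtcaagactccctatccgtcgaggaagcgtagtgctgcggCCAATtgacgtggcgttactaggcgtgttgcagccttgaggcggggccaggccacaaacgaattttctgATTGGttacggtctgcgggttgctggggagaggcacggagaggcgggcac
Elavl3: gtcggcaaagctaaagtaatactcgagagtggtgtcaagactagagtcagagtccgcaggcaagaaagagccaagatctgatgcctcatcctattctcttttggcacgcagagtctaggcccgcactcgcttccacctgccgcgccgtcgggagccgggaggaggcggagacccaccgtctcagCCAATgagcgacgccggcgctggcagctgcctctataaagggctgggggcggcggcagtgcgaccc
The window of Vcp held the letters 4 times on the 2 strands and that of Elavl3 1 time, while 33.8% of all 32851 windows of this length held them at least once. A match of letters is not a bound site. Sctr itself spans chr1:120006894-120063536 on the plus strand and Rxfp1 chr3:79641611-79737880 on the minus strand.

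Beyond the markers, 57 genes were counted as higher in NA1c than in all other neurons and 181 as lower, or 1.46% and 4.64% of 3897 genes, with a median difference over all genes of 0.02. Without the neurons that share a barcode the counts were 34 and 100 (0.867% and 2.55% of 3920 genes), all 34 and 93 of the 100 being among the first. With NA2 left out they were 26 and 83 (0.659% and 2.1% of 3946 genes). Without replicate 2, 88 genes were counted as higher. The 15 largest differences ran from 1.27 to 2.40, and each of the 15 genes was still counted in the comparison without shared barcodes and in that without NA2. After thinning to 2000 UMIs 11 of the 15 were counted (not B230209E15Rik, Dtnb, Grid2ip and Pou2f2), and with a pseudocount of 1 in place of 0.1 only 3 were. Against NA1a alone 4 of them were counted (Sctr, Tacc2, Dtnb and Flt3l), where 1.83% of all genes were higher. Against NA1b alone 11 were, where 1.49% of all genes were.

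**Figure D3:**
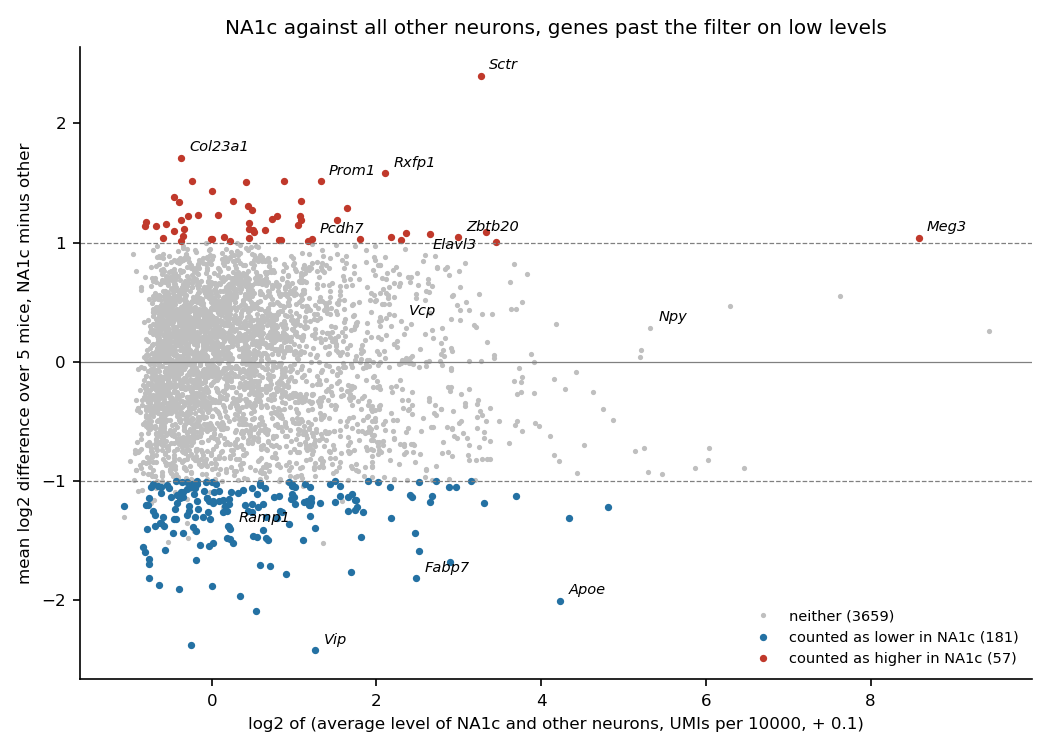
Mean log2 difference over 5 mice, NA1c minus all other neurons, against the log2 of the average level, for 3897 genes. Red and blue points are the 57 genes counted as higher and the 181 counted as lower, dashed lines mark a 2-fold difference, and Sctr stands above all other genes at 2.40.

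Of the genes with the 15 largest differences, Col23a1, a collagen anchored in the membrane, had 1.51, 1.68, 0.689, 0.860 and 0.740 UMIs per 10000 in NA1c and at most 0.341 in the other neurons of any mouse. It passed the filter on low levels only through NA1c, so the groups had to lie apart. NA1a alone had 0.662, 0.225, 0.893, 1.05 and 0.370, which overlaps NA1c. Prom1, a membrane glycoprotein (prominin), was the steadiest, at 3.41, 3.76, 3.54, 3.66 and 3.66 in NA1c against 1.35, 1.13, 1.26, 1.09 and 1.14. Its difference was 1.52 ± 0.17, and NA1c was above NA1a in all 5 mice by 0.35. Gria1, a subunit of AMPA-type glutamate receptors, had 2.40, 2.61, 1.31, 1.18 and 1.99 in NA1c against 0.443, 0.540, 0.740, 0.576 and 0.598, without overlap. In NA1a alone Gria1 was at 0.797, 0.540, 1.14, 1.34 and 1.49, which overlaps NA1c. Grid2ip, a scaffold that binds a delta glutamate receptor, differed by 1.51 ± 0.64 but overlapped, since replicate 3 had only 0.451 in NA1c.

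Brinp2, Csmd2, Epha10 (an Eph receptor) and Insrr (a receptor related to the insulin receptor) were counted too, with differences of 1.51, 1.44, 1.31 and 1.29. None of the 4 overlapped between the groups, but genes chosen by their difference are likely to be apart. Here and elsewhere, the share of all genes without overlap was not counted. Insrr had 3.91, 4.43, 5.44, 4.21 and 3.64 UMIs per 10000 in NA1c and 1.85, 1.76, 2.12, 1.32 and 1.52 in the others. The remaining genes of the 15 were Tacc2, which binds microtubules and the centrosome, Dtnb, a dystrobrevin, the cytokine Flt3l, the transcription factor Pou2f2 and the long noncoding RNA B230209E15Rik, with differences from 1.27 to 1.38.

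Vip had the largest difference downwards, -2.42 ± 0.53, which was -1.20 without the neurons that share a barcode, and several others of the 10 largest were genes that glia express. Vasoactive intestinal peptide stood at 1.65, 0.188, 0.731, 0.639 and 0.327 UMIs per 10000 in NA1c and at 6.96, 2.67, 3.60, 4.45 and 1.69 in the other neurons. Its RNA was concentrated in the cholinergic subtype Ach2, with 55.8 and 35.6 in the 2 mice with enough neurons, and against NA1a and NA1b its difference was positive, 0.97 and 0.67, in 4 of 5 mice each. Against NA1a and NA1b together, 0 of the 10 genes were counted as lower, where 0.38% of 3952 genes were higher and 0.506% lower.

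Apoe, a lipid carrier abundant in glia, was at 13.5, 10.8, 4.52, 4.39 and 5.22 in NA1c and at 17.5, 36.3, 18.7, 32.2 and 43.9 in the other neurons. Fabp7, a fatty acid binding protein of satellite glia, differed by -1.82 ± 1.24 and Gpm6b by -2.1 ± 1.51. The 10 satellite glia markers of the list written for them summed to 7.78 to 25.0 UMIs per 10000 in NA1c, to 6.61 to 8.70 in NA1a, to 3.32 to 21.9 in NA1b and to 187 to 346 in NA3. Of the 6 measured members, 3 were counted as lower and 0 as higher, beside 1.46% higher and 4.64% lower of all genes, and no marker of the list was at 0 in NA1c. Once NA3 and Ach1 were left out of the other neurons, Apoe, Fabp7, Gpm6b, Ifitm3, Ifi27l2a and Rarres2 were no longer counted. The summed Schwann cell markers were 3.08 to 4.16 in NA1c and 4.13 to 7.46 in the other neurons, with Mag at 0 in NA1c, and the fibroblast markers 1.07 to 4.72 and 2.64 to 14.6, with Pdgfra at 0. Endothelial markers (0.535 to 0.775 in NA1c, with Cdh5, Ly6c1 and Cldn5 at 0), immune markers (0.877 to 1.96) and smooth muscle markers (0.169 to 0.618, with Des at 0) were low. What part such RNA has in these differences was not tested.

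Compared with its nearest subtypes one by one, NA1c differed from NA1a by 72 genes counted as higher and 116 as lower (1.83% and 2.95% of 3935 genes), and from NA1b by 59 and 33 (1.49% and 0.834% of 3959). These 2 comparisons share the NA1c values. Several kinds of genes stood out from the pair of comparisons, chosen after their values were seen. Sctr, Tacc2 and Dtnb were counted as higher than in both. Tacc2 had 2.50, 3.29, 4.28, 2.57 and 2.12 UMIs per 10000 in NA1c, at most 1.67 in NA1a and at most 1.87 in NA1b. Dtnb had 2.19, 1.80, 1.91, 1.04 and 1.22 in NA1c, at most 0.944 in NA1a and at most 1.21 in NA1b, which overlaps NA1c. Its difference from NA1b, 1.001, only just met the limit. Against NA1a and NA1b together Dtnb was not counted, at 0.91.

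Ramp1 and Cyc1 were counted as lower than in both. Ramp1 is the partner protein that makes a receptor for the peptide CGRP. Its level in NA1c was 0.399, 0.670, 0.614, 0.254 and 0.849 UMIs per 10000, against 1.66, 1.45, 1.28, 1.25 and 1.93 in NA1a and 1.11, 0.849, 2.25, 1.37 and 1.76 in NA1b. NA1c was below both within all 5 mice, by -1.36 and -1.26. NA3 overlapped NA1c, at 0.741 ± 0.236 in the 3 mice with at least 10 such neurons, so a low level of Ramp1 was not particular to NA1c. Of Calcrl, the receptor that Ramp1 joins, no UMI was found in the 216 NA1c neurons, which leaves room for 1.39% of neurons. It was found in only 6 of 786 other neurons (0.763%), so no difference was detectable. Cyc1, a subunit of complex III of the respiratory chain, had 0.454 ± 0.288 in NA1c, 1.11 ± 0.189 in NA1a and 0.976 ± 0.253 in NA1b.

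The last kind lay between NA1a and NA1b. Npy stood at 44.4, 46.6, 45.7, 34.3 and 45.6 UMIs per 10000 in NA1c, where NA1a had 77.6, 87.8, 93.3, 80.6 and 72.5 and NA1b 8.38, 15.3, 7.15, 7.59 and 6.36. The 3 ranges were apart, but the difference from NA1a, -0.93 ± 0.22, was short of the 2-fold limit. NA2 had 40.9 ± 8.45 UMIs per 10000 and Ach1 44.1 in 1 mouse, so this level of Npy was not particular to NA1c. Against all other neurons together the level of Npy did not differ beyond the spread, at 0.29 ± 0.47. Galanin was 10.3 ± 2.29 in NA1c, 23.0 ± 10.0 in NA1a and 3.60 ± 1.40 in NA1b, lower than in NA1a and higher than in NA1b in all 5 mice. Pcp4, which modulates calmodulin, had 2.18 ± 0.822, 6.87 ± 2.17 and 0.221 ± 0.0722 in the same order, and the LIM protein gene Crip1 2.50 ± 0.615, 5.23 ± 1.39 and 1.18 ± 0.433. Kcnt1, a sodium-activated potassium channel, ran the other way, with 2.63 ± 0.894 in NA1c, 1.18 ± 0.677 in NA1a and 5.41 ± 2.1 in NA1b. Its difference from NA1b, -1.003, only just met the 2-fold limit.

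The further genes with the largest differences from each neighbour were of different kinds. Among the largest differences upwards from NA1a were those of Gm26870 at 1.69, Wscd2 at 1.54, Syn1, a synapsin of synaptic vesicles, at 1.52, Vcp and Elavl3, and the largest downwards were those of B430010I23Rik at -2.06, Gm26699 at -1.73 and Rbm4b at -1.68. The largest upwards from NA1b, after Sctr and Rxfp1, were those of Pcp4 at 2.78, Col23a1 at 2.73, B230209E15Rik at 2.71 and Pcdh7 at 2.65. The largest downwards from NA1b were those of Gfra2, a coreceptor for neurturin, at -2.77, Man1a, a mannosidase of the Golgi, at -2.51, and Adcy1, a calcium-stimulated adenylyl cyclase, at -2.23. Gfra2 averaged 0.0469 in NA1c and 0.856 in NA1b. Gfra2 and Adcy1 passed the filter on low levels only through NA1b, and Gm26699 only through NA1a. Against NA1b, Pcp4, Col23a1 and B230209E15Rik passed it only through NA1c. The direction of these differences was therefore set by the filter.

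Of 12 measured genes of noradrenaline synthesis, storage and uptake, 0 were counted in either direction, beside 1.46% and 4.64% of all genes, and their median difference was -0.01. Dbh was 11 ± 2.51 UMIs per 10000 in NA1c and 10.4 ± 0.993 in the others, Th 5.95 ± 0.793 and 5.97 ± 0.862, and Slc6a2 14.9 ± 1.26 and 15.1 ± 2.59. Slc18a2, the vesicular monoamine transporter, was at 10.6, 9.77, 13, 11.7 and 11.2 in NA1c and at 6.64, 7.28, 7.76, 8.37 and 7.60 in the others. It was higher in all 5 mice without overlap, by 0.57 ± 0.13, which is under 2-fold. The markers of neurons in general were present, with 0 of 8 counted, and Snap25 was 8.60 ± 1.08 and 8.58 ± 0.862.

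Downstream of the 2 receptors, 0 of 15 measured genes of the cyclic AMP pathway were counted, which is near the share over all genes (1.46% higher and 4.64% lower), and their median difference was 0.09. Gnas, the stimulatory G protein subunit, was 27.0 ± 4.61 in NA1c and 51.4 ± 7.01 in the others, lower in all 5 mice by -0.93 ± 0.38, which stays short of the 2-fold limit. Adcy3, an adenylyl cyclase, differed by 0.69 ± 0.29 and was higher in all 5 mice. Of the related peptide receptors, Adcyap1r1, which binds PACAP, differed by 0.50 ± 0.46.

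Of 16 measured transcription factors of sympathetic neurons, Zbtb20 and Tcf4 were counted as higher and 0 as lower, beside 1.46% higher and 4.64% lower of all genes. Zbtb20 was even over mice, at 10.6, 10.5, 10.8, 9.95 and 11.2 in NA1c against 5.33, 5.03, 5.01, 4.47 and 5.61, and Tcf4 was 6.54 ± 1.37 against 3.13 ± 0.347. Both differed little from NA1a (0.21 and 0.11) and were counted against NA1b (1.41 and 1.05), and neither was counted once NA2 was left out. Gata2 was higher in all 5 mice, by 0.87 ± 0.40 from all other neurons, 0.69 from NA1a and 0.60 from NA1b, under the limit each time.

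Of 9 measured protocadherins and contactins, Pcdh7 and Pcdh9 were counted as higher and 0 as lower, and the list's median was 0.59. Over all genes 1.46% were higher and 4.64% lower, against which this and the next lists are to be read. Against NA1b 4 were counted as higher (Pcdh7, Pcdh9, Pcdh10 and Cntn5), where 1.49% of all 3959 genes were. Against NA1a 0 were, where 1.83% of all 3935 genes were, and the median was -0.33. No sodium, potassium or calcium channel gene was counted among 7, 12 and 7 measured. The calcium channel subunits Cacna1a and Cacna1b were higher in all 5 mice by 0.85 ± 0.43 and 0.81 ± 0.33. Among 11 measured immediate early genes, Npas4 was counted as higher (1.04 ± 0.554 against 0.392 ± 0.264) and Fos and Junb as lower, and the last 2 were not counted against NA1a or NA1b.

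Of 37 measured Vcp cofactors and proteasome subunits, 3 proteasome genes (Psma2, Psmb1 and Psmb5) were counted as lower and 0 as higher, a share near that over all genes (4.64% lower), with a median of -0.31. None of the 3 was counted after NA2 was left out. In the list of neuronal RNA-binding proteins, 0 of 16 were counted against all other neurons. Against NA1a, Elavl3 and Celf1 were counted as higher among 15 measured, where 1.83% of all 3935 genes were.

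A broad difference ran along gene length. By the genomic span of the gene, from its start to its end in GENCODE vM21 (build GRCm38), the median difference of NA1c from all other neurons over 425 genes of up to 5 kb was -0.65, -0.38, -0.76, -0.77 and -0.44 in replicates 1 to 5. Over 706 genes of more than 100 kb it was 0.25, 0.24, 0.41, 0.56 and 0.31. The 57 genes counted as higher had a median span of 85.5 kb, the 181 counted as lower 7.23 kb and all genes tested 29.3 kb.

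Lists of ribosomal and respiratory chain genes were added after the values were seen. Of 76 measured cytosolic ribosomal protein genes, 14 were counted as lower and 0 as higher, with a median of -0.67, and of 76 nuclear-encoded genes of oxidative phosphorylation 22 were lower and 0 higher, with a median of -0.83. Mitochondrial ribosomal proteins had a median of -0.63, with 7 of 39 lower. Over all genes 4.64% were lower. With NA2 left out of the other neurons, where 2.1% of all genes were lower, the counts fell to 1 of 76, 5 of 73 and 3 of 36, and the medians were -0.45, -0.55 and -0.46. The summed level of the cytosolic ribosomal proteins was 299 ± 35.1 UMIs per 10000 in NA1c, 454 in NA1a, 292 in NA1b and 763 in NA2. For oxidative phosphorylation the sums were 139 ± 8.75, 213, 168 and 423. NA1c was thus at the level of NA1b in ribosomal protein RNA and on average below NA1a, and NA2 was far above all 3.

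Part of the contrast by length lay in NA2. Against NA2 the median difference of NA1c was -1.18 ± 0.0576 for genes of up to 5 kb and 1.22 ± 0.2 for those over 100 kb, and 25.6% and 21.4% of 3712 genes were counted as higher and lower. Against NA1a the 2 medians were -0.42 ± 0.13 and 0.12 ± 0.0773, against NA1b -0.11 ± 0.17 and 0.04 ± 0.091, and against all other neurons except NA2 -0.43 ± 0.15 and 0.23 ± 0.14. The nuclear RNA Meg3 was 556, 704, 442, 444 and 386 UMIs per 10000 in NA1c and 8.72 to 17.7 in NA2, and Malat1 502 to 1009 and 35.1 to 98.4. Meg3 was counted as higher than in all other neurons, 506 ± 127 against 260 ± 129.8, but not with NA2 left out, at 0.74. Its difference from NA1a was 0.92, in all 5 mice, and from NA1b, at 447 ± 164, it was 0.21.

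**Figure D4:**
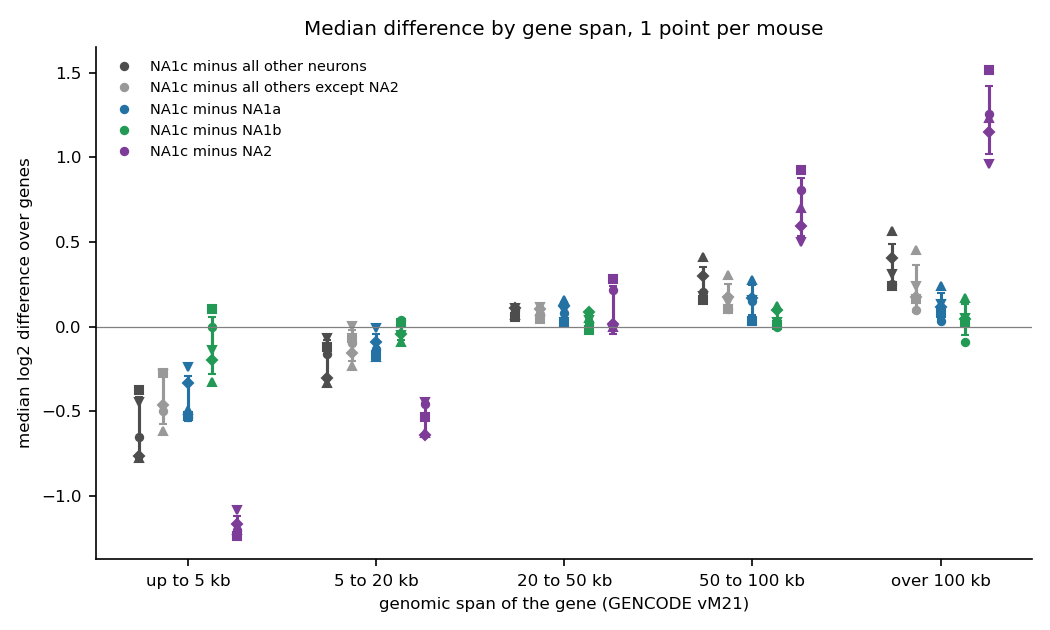
Median log2 difference over the genes of each genomic span, NA1c minus the group named, with 1 point per mouse and bars for the SD over 5 mice. Against all other neurons the medians run from below 0 for genes of up to 5 kb to above 0 for genes over 100 kb, most steeply against NA2 and hardly against NA1b.

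NA1c neurons were shallower than those of NA1a in every mouse. Their median was 1969, 2400, 3239, 3687.5 and 3835 UMIs per neuron in replicates 1 to 5, against 5281, 3115, 5167, 3034 and 5388 in the other neurons of the same mice. NA1c was lower in 4 of 5 mice, by a log2 ratio of -0.54 ± 0.61, which an exact two-sided sign-flip permutation test over the 5 mice did not separate from 0 (p = 0.125). Against NA1a and NA1b only, NA1c was lower in 5 of 5 mice, by -1.06, with the smallest p that the exact permutation test can give for 5 mice, which lies above 0.05. NA2 was also shallow, with medians of 2046, 2123.5, 2332, 2300 and 4864 UMIs, below NA1c in 3 of 5 mice, and over all mice the median was 2206.5 in Ach1, 2461 in NA2 and 2685 in NA1c. The median share of mitochondrial RNA per neuron was 5.34, 3.95, 1.35, 1.36 and 2.66% in NA1c and 4.66, 3.95, 3.43, 5.67 and 4.70% in the others. With all neurons thinned to 2000 UMIs, the medians by gene span were -0.57 ± 0.17 for genes of up to 5 kb and 0.30 ± 0.0978 for those over 100 kb. What part depth has in the other differences was not tested further.

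**Figure D5:**
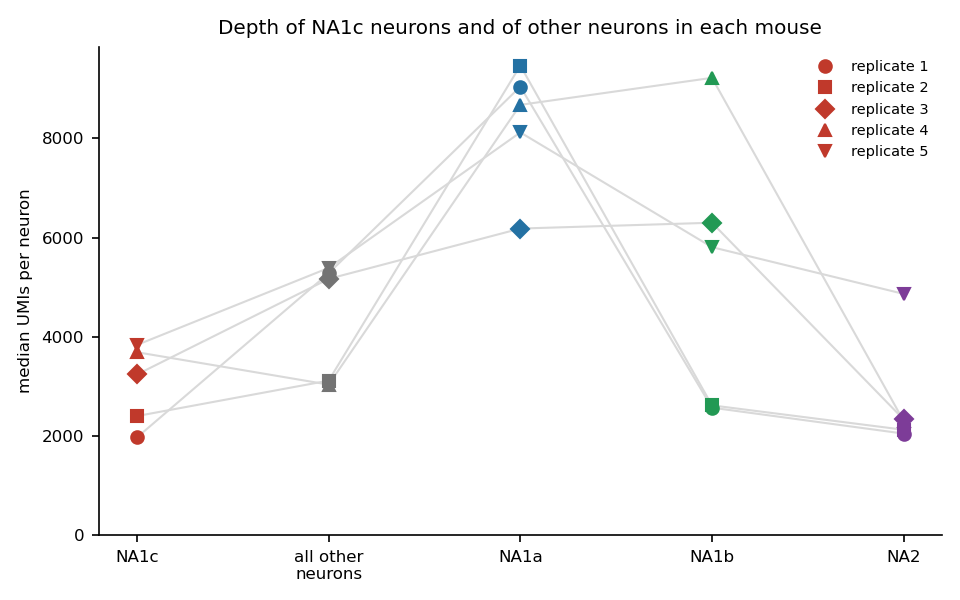
Median UMIs per neuron in each of the 5 mice, 1 marker shape per mouse, for NA1c, all other neurons and 3 subtypes. NA1c lies below NA1a in every mouse, and below all other neurons in 4 of 5.

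NA1c made up 22.4, 29.8, 12.1, 10.2 and 32.5% of the neurons of replicates 1 to 5, with a mean of 21.4% ± 10.1 (SD, n = 5 mice). In the unmatched mice together it made up 23 of 301 neurons, a lower share than in any of the 5, so the mean does not stand for all mice of the study. In replicates 1 to 5 NA1c gave 42.7% ± 18.5 of all Sctr UMIs of a mouse but 15.3% ± 7.14 of all UMIs. Of the reporters, a UMI of GFP was found in 6 of 1064 other neurons (0.564%) and in 0 of the 239 NA1c neurons, for which the exact 95% interval reaches 1.53%. A UMI of tdTomato was found in 4 NA1c neurons (1.67%, exact 95% interval 0.458 to 4.23%) and in 16 of the others (1.5%). These shares pool the neurons of all mice, the interval covers counting error only, and no difference was detectable at this depth. Each of the 4 held 1 tdTomato UMI. They had 2685, 1316, 785 and 679 UMIs and 1530, 825, 550 and 514 detected genes, and their Sctr UMIs were 5, 1, 0 and 0. Only 3 of the 239 NA1c neurons had at most 1000 genes, and all 3 were among these labelled neurons. The labelled share of NA1c thus rests mostly on its neurons with the fewest genes, and the reason was not tested.

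Over 26 profiles, 1 for each subtype and mouse with at least 10 neurons, the genes whose pattern was most like that of Sctr were Col23a1 (Pearson's r = 0.88), Rxfp1 (0.87), Slit2 (0.87), Brinp2 (0.85) and Pcdh7 (0.83). The profiles of a mouse share a library, and the coefficients are given as a description. Npy had r = 0.68, Elavl3 0.21 and Vcp -0.02. Slit2, which encodes a guidance cue for axons, was too low for the count of genes, at 0.544 ± 0.257 UMIs per 10000 in NA1c and 0.2 ± 0.0784 in the others, and was higher in all 5 mice.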

How the data were processed

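Per the submitters' processing notes, reads were processed with Cell Ranger 2.1.1 on build mm10. In Seurat the authors removed low-quality cells, integrated the mice, and defined and named the subtypes of neurons by clustering. The methods name no removal of doublets, and none was done here. The table deposited by the authors covers 19224 genes in 1303 neurons, as the natural log of UMIs per 10000 plus 1. UMIs were recovered by dividing each neuron's values by their smallest step, and 100% of nonzero values lay within 0.01 of a whole number. Neurons of replicates 1 to 5 held 916296 to 1196621 UMIs per mouse.

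The recovered UMIs were scaled to 10000 per neuron and averaged over the neurons of a group in each mouse. Python 3.11.15 was used with SciPy 1.17.1, NumPy 2.4.6, pandas 2.3.3 and, for the plots, matplotlib 3.10.9. Groups of at least 10 neurons in a mouse entered, and genes needed a level of at least 0.5 UMIs per 10000 in at least 5 of the 10 profiles. The pseudocount of 0.1 understates the change of low genes. How reads over overlapping genes were assigned is not stated, so such genes may not be told apart. The labels describe a digestion of left and right ganglia combined, and whether the mice were digested apart is not clear from them. Named genes are the 5 markers, the 15 largest and 10 smallest differences, in each list the genes counted and up to 4 of the most abundant others, and the 5 most like Sctr. Genes set apart from NA1a or NA1b were named after their values were seen. Members, lists and rules were chosen with earlier results of these data known. A result that the rule would name is not reported here. The calculations were tested on simulated data. Alternatives covered the pseudocount, the filter, the comparison group, depth, scaling, centring, group size and each mouse, and those on NA2 and shared barcodes were added after the values were seen.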

Additional observations from a re-analysis of the deposited data

Results flagged for a closer look

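For the share of NA1c, the depth ratio, the detection of Sctr and the differences of 41 named genes, the highest and the lowest mouse were compared with the other 4, and a mouse standing far apart (Dixon's ratio above the 95% critical value) was found 2 times. Chance alone gives about 1 in 20 for each. Vcp differed from all other neurons by 0.81 in replicate 1 and by 0.15 to 0.27 in the other mice. Pcdh9 differed by 1.65 in replicate 2 and by 1.02 to 1.17 in the other mice.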

How the results depend on the processing

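The counts of genes, 57 higher and 181 lower, depended on the group compared and on low genes. They were 4 and 18 with a pseudocount of 1, 146 and 316 with each other subtype weighted equally, 15 and 20 against NA1a and NA1b only, 34 and 118 from summed UMIs scaled to their total, 34 and 100 without neurons that share a cell barcode, and 26 and 83 without NA2. Without the filter on low levels 361 genes were lower. Leaving out each mouse gave 55 to 88 higher and 158 to 244 lower genes. Thinning kept the counts within 1.5 times, but only 29 of the 57 and 115 of the 181 genes were the same. Sctr was found by at least 2 UMIs in 77.6% of NA1c neurons, against 88.1% by 1. The other alternatives for the share of neurons, the depth ratio and Sctr detection stayed within 1 SD over mice or kept their direction. Leaving out each mouse gave shares of 18.6 to 24.2%, depth ratios of -0.74 to -0.31 and detection of 86.2 to 90.3%. Of 533 values for 41 named genes, 462 stayed within 1 SD over mice and 5 changed sign, all against NA1a and NA1b only: Vip 0.59, Gpm6b 0.36, Apoe 0.38, Fabp7 0.63 and Fos 0.11. The cause of these changes was not tested. Depth limits low genes: only 182 of the 239 NA1c neurons had the 2000 UMIs that thinning needs. Every difference was taken within a mouse, and the depth ratio was tested on these pairs, so the values given are already paired.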
